A study of Mus musculus with 8 samples.

Results

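Blood vessels grow into the embryonic forebrain from a plexus on its surface, and the endothelial cells that line them are a small minority among the neural progenitors and newborn neurons of the tissue. An endothelial cell is recognised by the receptors through which it senses growth factors, among them the VEGF receptors Flt1 and Kdr and the angiopoietin receptor family Tie1 and Tek, and by the junction proteins Cdh5 (VE-cadherin), Pecam1 and Esam that seal neighbouring cells. Its identity is set by transcription factors of the ETS family together with SOX, GATA and TAL factors, and vessels of the brain add tight junctions and transporters that form the blood-brain barrier. The nuclei described here were those with the most open chromatin at 9 such genes.

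Chromatin accessibility was measured by single-nucleus ATAC-seq, in which a transposase cuts open DNA and the cuts are counted in peaks, in 8 samples of WT mouse embryonic brain. They were 2 samples each of the cortex (CTX), the medial ganglionic eminence (MGE), the lateral ganglionic eminence (LGE) and the caudal ganglionic eminence (CGE). The eminences, together called GE, are the ventral swellings where GABAergic neurons are born. All samples were taken at E12.5 except CTX replicate 2, taken at E14.5, so that age and region cannot be told apart in that sample. The labels do not say whether the samples came from separate embryos or litters, so p-values measure only the spread between these samples, which may be technical.

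The score of a nucleus was the share of its counts that fell in peaks over the gene body, or the 2000 bp upstream, of Cdh5, Pecam1, Flt1, Kdr, Tie1, Tek, Eng, Esam and Robo4. Of 39253 nuclei, 36695 had at least 5000 counts, and the 1% with the highest score, 367 nuclei, were taken as the high-scoring nuclei; the other 36328 served for comparison. The number of high-scoring nuclei was 35 in CTX replicate 1, 73 in CTX replicate 2, 83 in MGE replicate 1, 21 in MGE replicate 2, 62 in LGE replicate 1, 16 in LGE replicate 2, 53 in CGE replicate 1 and 24 in CGE replicate 2. The nuclei were thus selected on their counts at the 9 genes, and those counts are given as a description, with no test. The median score was 0.100% in the high-scoring nuclei and 0.0148% in the others, and the highest was 0.320%.

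The score formed a continuum with no gap at the threshold. The last nucleus inside had 46 of its 55700 counts at the score genes, and the first outside had 10 of 12114, which gave scores of 0.0826% and 0.0825%. Within 10% of the threshold lay 91 nuclei inside and 153 outside. A high-scoring nucleus had a median of 13 counts at the score genes, spread over a median of 3 of the 9 genes, against 1 gene in the other nuclei. Of the 367, 123 had a count at 5 or more of the genes and 25 had counts at 1 gene alone. The high-scoring nuclei held a median of 12858 counts against 16744.5 in the others, and their median was the lower in each of the 8 samples. The score peaks, called separately in each sample, numbered between 41 and 73 and covered between 27.4 and 52.5 kb. Barcodes of 14 of the 367 nuclei also occurred in another library, but 0 of them were high-scoring in both.

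At the score genes the 2 classes differed by construction, and the genes differed in how widely they were seen. Flt1 read 141 to 441 counts per 1000000 counts in peaks (CPM) in the high-scoring nuclei, with a median over samples of 271, and 26.8 to 54.1 CPM in the others. Pecam1 read 131 to 357 CPM against 37.1 to 83.2. Tie1 was the most restricted, at 0 to 0.892 CPM in the other nuclei. In the high-scoring ones it ran from 0 CPM in LGE replicate 2 to 73.4 CPM in CTX replicate 2. In LGE replicate 2 neither class had a count at Tie1, so the classes could not be compared there. When every nucleus was thinned to 5000 counts, Pecam1 had a count in 62.9% of high-scoring and 21.3% of other nuclei, and Tie1 in 9.26% and 0.171%; before thinning these shares were 77.9% and 40.4% for Pecam1, and 22.6% and 0.567% for Tie1.

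The endothelial label was checked against 50 endothelial genes that were not in the score, 22 transcription factors and 28 surface or junction proteins, with any peak of a score gene removed. By the 99th percentile given below, it held for most of the 92 nuclei of highest score and for a minority in each lower group of ranks. In the 92 nuclei of highest score, the median share of counts at the 50 genes was 0.542% (interquartile range 0.363% to 0.647%). It was 0.288% in ranks 93 to 184, 0.247% in ranks 185 to 275 and 0.219% in ranks 276 to 367, while the other nuclei stood at 0.216% (interquartile range 0.172% to 0.262%). Nuclei above the 99th percentile of the other nuclei of their own sample made up 66.3%, 31.5%, 14.3% and 8.70% of the 4 rank groups, 111 nuclei in all, against 1.01% of the other nuclei. Only 68 high-scoring nuclei were above that percentile in both the transcription factor and the surface list. These shares were not adjusted for depth, which was lower in the high-scoring nuclei. The group is therefore called by its rule, as high-scoring nuclei, and not as endothelial.

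**Figure D1:**
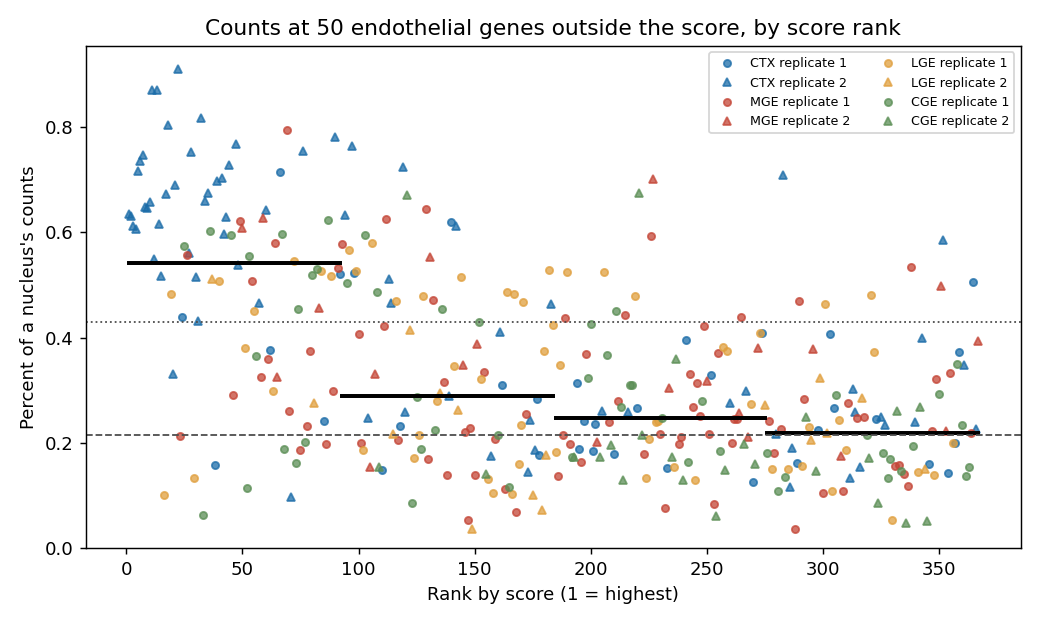
Each point is 1 of the 367 high-scoring nuclei, with its rank by score on the x axis and the percent of its counts at 50 endothelial genes outside the score on the y axis. Colours give the region, shapes the replicate, black bars the medians of the 4 rank groups (0.542%, 0.288%, 0.247% and 0.219%), the dashed line the median of the other nuclei (0.216%) and the dotted line their 99th percentile (0.431%); the points of CTX replicate 2 crowd the upper left.

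The samples contributed unequally to the upper ranks. The score peaks of CTX replicate 2 were the most numerous of any sample, at 73 over 52.5 kb, against 59 over 51.4 kb in CTX replicate 1. The part of the peak lists in the ranks was not tested. CTX replicate 2, the E14.5 sample, supplied 39 of the 92 nuclei of highest score and 20 of the first 25. In that sample 42 of 73 high-scoring nuclei lay above the 99th percentile at the 50 other endothelial genes, against 2 of 35 in CTX replicate 1 and 3 of 24 in CGE replicate 2. The count was 16 of 83 in MGE replicate 1, 7 of 21 in MGE replicate 2, 23 of 62 in LGE replicate 1, 2 of 16 in LGE replicate 2 and 16 of 53 in CGE replicate 1. In CTX replicate 1 the median share at those genes was 0.246% in the high-scoring nuclei and 0.260% in the others, and in CGE replicate 2 it was 0.173% and 0.185%, so that in these samples the typical high-scoring nucleus did not stand out.

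The share of nuclei that were high-scoring was 0.904% (95% exact binomial interval 0.631% to 1.26%) in CTX replicate 1 and 1.52% (1.19% to 1.91%) in CTX replicate 2. In the first replicates of MGE, LGE and CGE it was 1.36% (1.09% to 1.69%), 1.06% (0.810% to 1.35%) and 1.43% (1.07% to 1.87%). In the second replicates it was 0.634% (0.393% to 0.967%), 0.347% (0.198% to 0.562%) and 0.542% (0.348% to 0.805%). These intervals cover counting error only. The mean was 1.21% ± 0.436 (SD, n = 2) in CTX and 0.895% ± 0.453 (SD, n = 6) in GE, a difference of 0.317 percentage points that was smaller than the spread between samples (two-sided exact permutation test over 28 arrangements, p = 0.429). Without CTX replicate 2 the difference was 0.00914 points. In all 3 eminences the first replicate had the higher share, and the ranges of the first replicates (1.06% to 1.43%) and the second (0.347% to 0.634%) did not overlap.

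**Figure D2:**
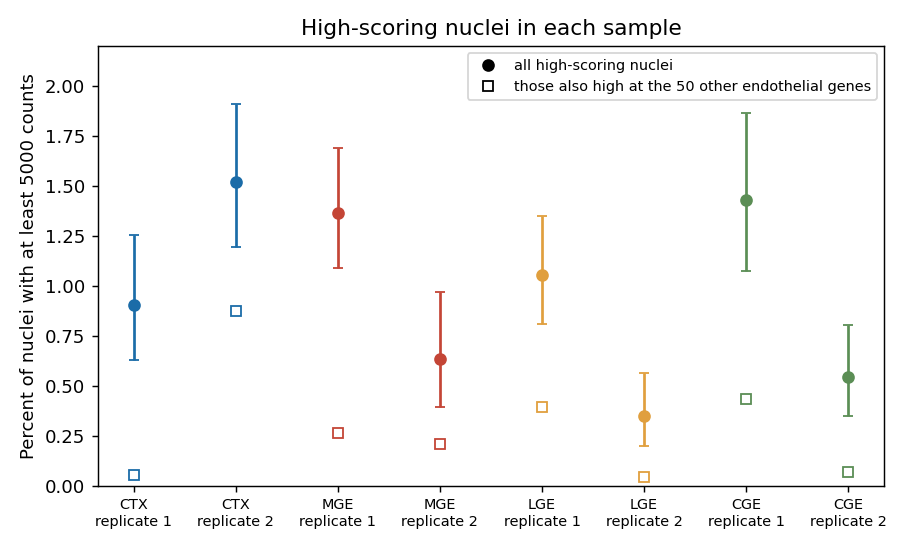
Filled points give the percent of nuclei with at least 5000 counts that were high-scoring in each sample, with 95% exact binomial intervals; open squares give the percent that were high-scoring and also above the 99th percentile at the 50 other endothelial genes. Among the eminences the first replicates lie between 1.06% and 1.43% and the second between 0.347% and 0.634%.

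The question of which loci outside the score differed in these nuclei was addressed by summing counts per sample and class and testing the sums in edgeR's quasi-likelihood framework, with the sample as a block and Benjamini-Hochberg adjustment over all genes. The counts of a gene were those of all peaks over its body and the 2000 bp upstream. Of 16660 genes tested, 4022 (24.1%) were called at an adjusted p of 0.05 or less, 1871 (11.2%) higher and 2151 (12.9%) lower in the high-scoring nuclei, and the median log2 fold over all genes was -0.02. With total counts in place of TMM scaling the split was 2545 higher to 1673 lower and the median was 0.08. The values of the classes did not overlap over the 8 samples for 337 genes (2.02%).

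Endothelial transcription factor genes were higher in the high-scoring nuclei. Of 22 tested, 17 rose and 0 fell, with a median log2 fold of 0.82. Sox18, an SRY-box factor of early arterial and lymphatic vessels, read 7.04 CPM in CTX replicate 1 and 33.1 to 66.4 CPM in the other samples, against 3.88 to 8.04 CPM in the other nuclei. Its log2 fold was 2.92 (SE 0.28, edgeR adjusted p = 5.87e-09), and only the CTX replicate 1 value lay within the range of the other nuclei. Hhex, a homeobox factor of early endothelium and blood, ran from 16.6 CPM in LGE replicate 2 to 73.6 CPM in CGE replicate 1, with a median of 61.0, against 10.9 to 19.7 CPM in the other nuclei (log2 fold 2.07, SE 0.19, edgeR adjusted p = 2.89e-09). Epas1, the hypoxia-inducible factor HIF-2α, read 79.6 to 211 CPM with a median of 148, and did not overlap the 29.2 to 44.9 CPM of the other nuclei (log2 fold 1.80, SE 0.13). Sox7, the partner of Sox18 in the same SOX subgroup, rose with a log2 fold of 1.84 (SE 0.20). Erg, Ets2, Mecom, Tcf4 and Heyl, named because they were the 5 that missed the threshold, had log2 folds of 0.26, 0.31, 0.11, 0.25 and 0.67.

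Genes of the endothelial surface and junctions were higher as well. Of 28 listed 27 were tested, 19 rose and 0 fell, with a median log2 fold of 1.16. Cd34, a sialomucin of endothelial and blood-forming cells, was at 0 CPM in CGE replicate 2, at 10.6 CPM in CTX replicate 1 and at 23.9 to 34.4 CPM in the remaining samples, against 1.92 to 3.69 CPM in the other nuclei (log2 fold 2.85, SE 0.35, edgeR adjusted p = 4.21e-07). Adgrl4, an adhesion G-protein-coupled receptor of sprouting endothelium, ran from 4.14 CPM in LGE replicate 2 to 52.9 CPM in CGE replicate 1 against 1.78 to 11.5 CPM (log2 fold 2.70, SE 0.32). She, an adaptor protein, read 14.47 CPM in CGE replicate 2 to 130 CPM in CTX replicate 2 and stayed above the 6.82 to 10.1 CPM of the other nuclei in every sample (log2 fold 2.56, SE 0.24). Pcdh12, a protocadherin of endothelial junctions, was higher in 6 of 8 samples (log2 fold 2.77, SE 0.46). Cldn5, the main claudin of brain vessel tight junctions, had a log2 fold of 2.46 (SE 0.21); it was chosen after its values were seen. In nuclei thinned to 5000 counts, Cldn5 had a count in 16.9% of high-scoring nuclei, in 33.7% of the 92 of highest score and in 4.28% of the others; before thinning it had one in 29.2% of high-scoring and 9.81% of other nuclei.

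Over both lists, 36 of 49 tested genes rose and 0 fell, against 11.2% and 12.9% of all genes tested. With any 1 sample left out, between 32 and 38 rose and 0 fell. It was 35 without CTX replicate 2, and 31 when high-scoring nuclei above the 95th percentile of counts of their own sample were left out, which kept 343. The count was 29 with the score taken only over regions with a peak in all 8 samples (median log2 fold 0.86), and 30 without the sample block. Again 0 fell. The 28 high-scoring nuclei above the 95th percentile of counts over all samples held 27.9% of the high-scoring nuclei's counts.

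Genes that distinguish the kinds of vessel moved less uniformly, and are given beside the 11.2% of all genes tested that rose and the 12.9% that fell. Of 10 venous and lymphatic genes, 7 rose and 1, Prox1, fell (log2 fold -0.46), and the median was 0.74. Aplnr, the apelin receptor of veins and sprouting capillaries, had the largest fold among them. It ran from 2.35 CPM in CTX replicate 1 to 52.6 CPM in CTX replicate 2 with a median of 34.6, while the other nuclei read 0.226 to 2.30 CPM, so that the classes did not overlap (log2 fold 4.22, SE 0.35, edgeR adjusted p = 3.51e-10). Flt4, the receptor for VEGF-C, rose with a log2 fold of 1.65 (SE 0.17). Stab1, a scavenger receptor, had a log2 fold of 1.99 (SE 0.24), but its peaks are also within Nisch, and the 2 genes cannot be separated here. Ackr1, an atypical chemokine receptor of venules, was called with a log2 fold of 2.22 (SE 0.78), in peaks shared with Cadm3. It reached 9.06 CPM at most in the high-scoring nuclei and was at 0 CPM in 4 samples, those of MGE and LGE. The other nuclei of those 4 samples had no counts at it either. The gene could not be compared there, and the fold rests on the CTX and CGE samples.

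Among 19 arterial and tip cell genes 8 rose, 1 fell and 10 missed the threshold, and the median log2 fold was 0.33. Over all genes tested, 11.2% rose and 12.9% fell. Pdgfb, the growth factor by which sprouting endothelium recruits pericytes, read 65.1 CPM in CGE replicate 2 to 143 CPM in CTX replicate 2 with a median of 109, above the 16.6 to 37.9 CPM of the other nuclei in every sample (log2 fold 2.11, SE 0.14, edgeR adjusted p = 9.00e-12). Esm1, a secreted proteoglycan of tip cells, had a log2 fold of 1.98 (SE 0.49) from low values that were at 0 CPM in LGE replicate 2 and CGE replicate 2, and its peaks are shared with Gzmk. Kcne3, a potassium channel subunit of tip cells, had a log2 fold of 1.47 (SE 0.33), and Sema3g, an arterial semaphorin whose peaks are shared with Nisch, one of 1.73 (SE 0.21). The gene that fell was Efnb2, the ephrin of arteries (log2 fold -0.39), which neural cells also use.

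Of 18 barrier genes tested of 20 listed, 8 rose, 1 fell and 9 missed the threshold, with a median log2 fold of 0.33. Over all genes tested, 11.2% rose and 12.9% fell. Foxq1, a forkhead factor, read 28.9 CPM in CGE replicate 2 to 88.6 CPM in LGE replicate 1 and did not overlap the 15.5 to 21.8 CPM of the other nuclei (log2 fold 1.70, SE 0.15), in peaks shared with A530084C06Rik. Itm2a, a membrane protein, rose with a log2 fold of 1.16 (SE 0.26) in 6 of 8 samples, the cationic amino acid transporter gene Slc7a1 with 0.93 (SE 0.12) in 8 of 8, and Tjp1, the tight junction scaffold ZO-1, with 0.69 (SE 0.11) in 8 of 8. Cgn, which encodes the junction protein cingulin, was the one that fell (log2 fold -0.60).

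In the signalling list, which held genes of the VEGF, Notch, Wnt, BMP and TGF-β pathways and of the basement membrane, 15 of 36 rose and 7 fell. These were 41.7% and 19.4% of the list, against 11.2% and 12.9% of all genes tested. Fzd6, a Wnt receptor, read 14.47 to 67.1 CPM with a median of 38.8 against 6.66 to 14.7 CPM in the other nuclei, the classes touching only at the CGE replicate 2 value (log2 fold 1.90, SE 0.21). Adgra2, or Gpr124, the co-receptor through which brain endothelium receives Wnt7 signals, rose with a log2 fold of 1.45 (SE 0.14), as did the TGF-β receptor gene Tgfbr2 (1.47, SE 0.15). Plxnd1, the semaphorin receptor that guides vessels, read 86.8 to 218 CPM against 45.5 to 71.9 CPM, with no overlap (log2 fold 1.42, SE 0.14). The 7 that fell included the ligand genes Wnt7a (log2 fold -1.21) and Wnt7b (-0.75), which are made by neural progenitors, and Vegfa (-0.62); they were chosen after their values were seen.

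**Figure D3:**
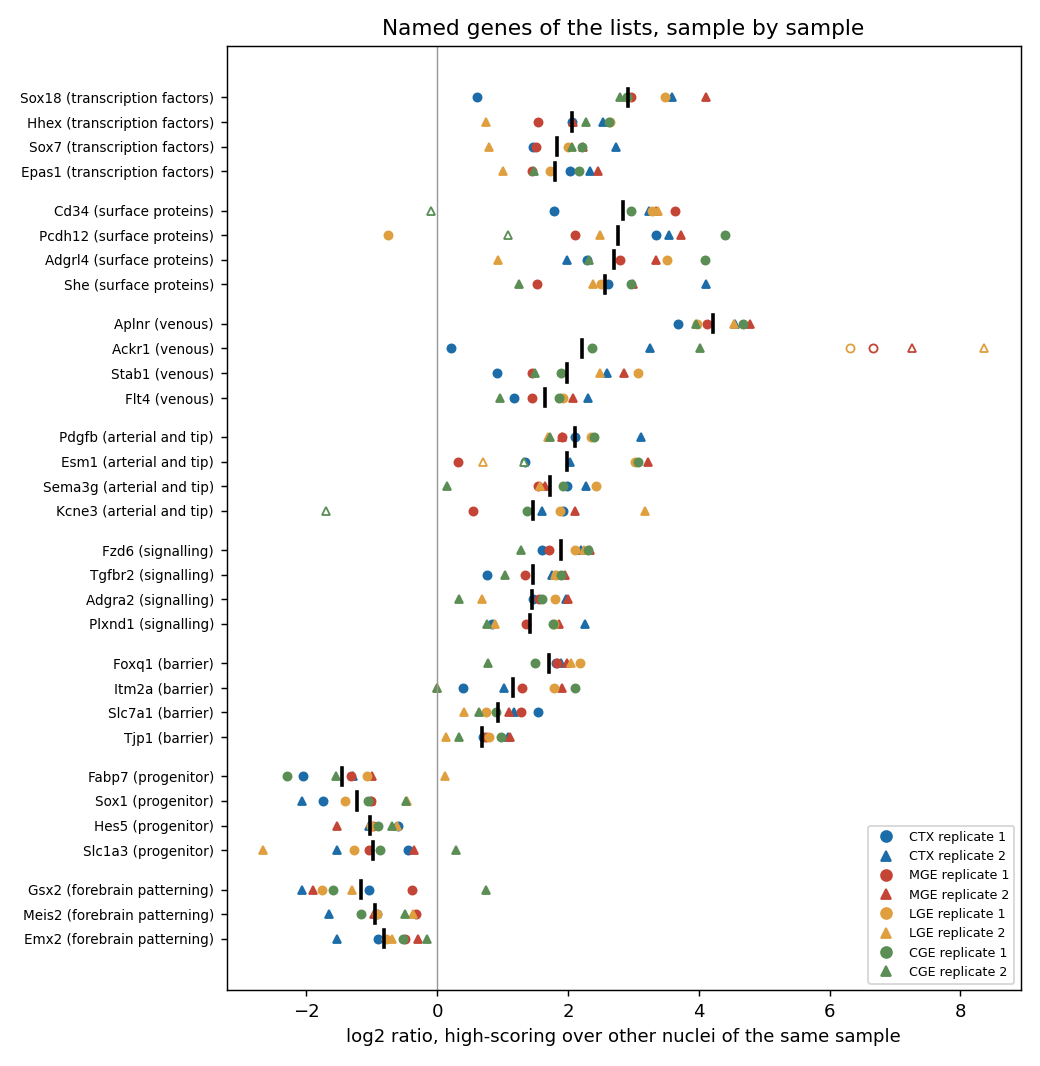
Each point is the log2 ratio of high-scoring over other nuclei in 1 sample, with colours for regions and shapes for replicates, and the black bar is the fitted log2 fold over the 8 samples. Open points had 0 counts in the high-scoring nuclei, and their place is set by the 0.5 counts added, as for Ackr1. In the MGE and LGE samples both classes had 0 counts at Ackr1, so its points there, at 6.31 to 8.37, show no difference between the classes. Aplnr lies right of 0 in all 8 samples, whereas Sox18 is near 0.61 in CTX replicate 1 and at 2.80 or more elsewhere.

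Among genes with at least 20 CPM in the higher class that moved the same way in every sample and shared no peak with a score gene, the largest folds higher were those of Tbxa2r, Aplnr, Uba7, Htra3, Tmem204, Mall, Alpk3, Zfp366, Sox18 and Icam1, with log2 folds from 4.39 down to 2.90. Tbxa2r encodes the thromboxane receptor, which acts in platelets and vessel walls. It read 7.24 CPM in CGE replicate 2 and 8.29 CPM in LGE replicate 2, 30.5 to 64.4 CPM in the other samples, and 0.515 to 3.28 CPM in the other nuclei (log2 fold 4.39, SE 0.33, edgeR adjusted p = 6.26e-11). Uba7, the activating enzyme for ISG15, read 33.1 to 139 CPM against 2.69 to 10.7 CPM (log2 fold 4.04, SE 0.21), and Htra3, a secreted serine protease, 33.1 to 130 CPM against 2.12 to 8.12 CPM (log2 fold 3.97, SE 0.23). Neither gene's classes overlapped. Icam1, the adhesion molecule to which leukocytes bind, read 8.29 to 58.0 CPM against 2.27 to 5.49 CPM, also without overlap (log2 fold 2.90, SE 0.33). Peaks counted for Uba7 are shared with the gene model Gm20661 and those for Tmem204 with Ift140, so those values belong to either gene.

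Chromatin at neural genes was lower, beside the 12.9% of all genes tested that fell and the 11.2% that rose. Of 12 progenitor genes 9 fell and 1, Nes, rose (log2 fold 0.45), with a median of -0.83; nestin is made by neural progenitors and by young vessels. Fabp7, the fatty acid binding protein of radial glia, read 11.4 to 28.2 CPM in 7 samples and 58.0 CPM in LGE replicate 2, against 47.5 to 58.2 CPM in the other nuclei (log2 fold -1.45, SE 0.19, edgeR adjusted p = 9.80e-07). Sox1 (log2 fold -1.22, SE 0.14), Hes5 (-1.03, SE 0.11) and Slc1a3 (-0.98, SE 0.17) also fell; the peaks of Hes5 are shared with Pank4. Of 18 forebrain patterning genes 16 fell and 0 rose, with a median of -0.68. Meis2, a homeobox factor of the ventral forebrain, read 117 to 452 CPM in the high-scoring nuclei and 282 to 584 CPM in the others (log2 fold -0.95, SE 0.12), and was lower in 8 of 8 samples. Of 10 pan-neuronal genes 7 fell and 0 rose (median -0.74), of 10 GABAergic genes 8 fell and 0 rose (median -0.46), and of 10 glutamatergic genes 4 fell and 0 rose (median -0.35). The number of GABAergic genes that fell was 3 when the score was taken over shared regions (median -0.25) and 3 at the top 2% (median -0.18).

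The neural signal was reduced and not absent. Map2, the dendritic microtubule protein, read 98.8 to 185 CPM in the high-scoring nuclei against 194 to 266 CPM (log2 fold -0.93, SE 0.12), which is 1.91-fold lower. Dcx, a microtubule protein of migrating neurons, read 18.1 to 57.9 CPM against 33.0 to 78.6 CPM (2.08-fold lower, log2 fold -1.06, SE 0.16). Among genes with at least 20 CPM in the higher class that moved the same way in every sample and shared no peak with a score gene, the largest folds lower were those of Fam181a, Trp63, Mlc1, 9330159F19Rik, Pnmal1 and Pkd1l1, with log2 folds from -1.99 to -1.65. Mlc1, a membrane protein of astrocytes and radial glia, read 7.48 to 24.9 CPM against 28.7 to 54.5 CPM, without overlap (log2 fold -1.84, SE 0.20).

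The size of both differences varied with the cut of the score, and the samples in the fits changed with the cut. When the top 2%, 1%, 0.5% and 0.25% by score were compared with the rest, the median log2 fold of the surface list was 0.98, 1.16, 1.35 and 1.63, and that of the transcription factor list 0.75, 0.82, 1.03 and 1.26. The medians of the progenitor list were -0.65, -0.83, -1.25 and -1.41, and those of the pan-neuronal list -0.52, -0.74, -1.14 and -1.77. Samples with fewer than 10 high-scoring nuclei were left out of these fits, which left 6 samples at the top 0.5% and 4 at the top 0.25%. MGE replicate 2 and CGE replicate 2 were left out at both cuts, and CTX replicate 1 and LGE replicate 2 also at the top 0.25%. The E14.5 sample was then the only CTX sample. The number of nuclei and the choice of samples cannot be told apart here.

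**Figure D4:**
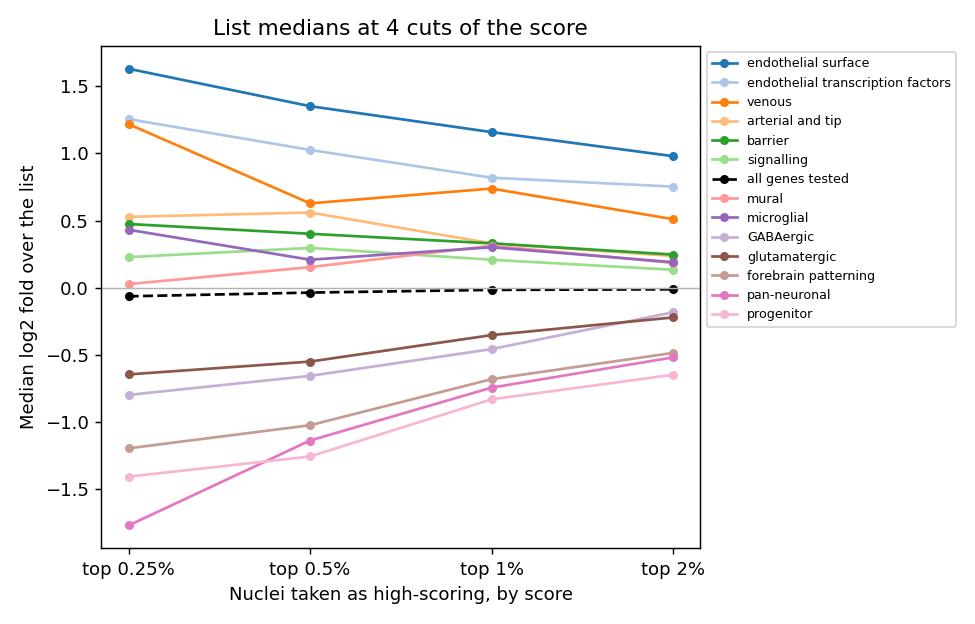
The median log2 fold of each gene list (y axis) is plotted for 4 cuts of the score (x axis), with a dashed line for all genes tested. The endothelial surface list falls from 1.63 to 0.98 and the progenitor list rises from -1.41 to -0.65 as more nuclei are taken. The samples in the fits also change with the cut.

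Lists of other non-neural cells that the dissected tissue could hold are given beside the 11.2% of all genes that rose and the 12.9% that fell, and their part in the result was not tested. Of 14 mural cell genes tested, which mark pericytes and smooth muscle, 2 rose and 1 fell. The summed level of the list was 369 to 803 CPM in the high-scoring nuclei and 329 to 500 CPM in the others. Of the 367 high-scoring nuclei, 19 lay above the 99th percentile of their own sample for the mural list. Foxf2, a forkhead factor of brain pericytes, read 39.8 to 133 CPM against 22.9 to 37.5 CPM, without overlap (log2 fold 1.60, SE 0.15), and Tbx2 had a log2 fold of 0.34 (SE 0.12), which turned to -0.02 when the top 0.25% were taken. Notch3 fell (-0.68, SE 0.14), and the pericyte receptor gene Pdgfrb had a log2 fold of -0.02 and missed the threshold. Of 14 mesenchymal genes 2 rose (Foxc1, log2 fold 0.60, and Foxc2, 0.72, in peaks shared with Gm20388) and 2 fell (Dcn, -1.18, and Prrx1, -0.73), at a summed 391 to 674 CPM against 365 to 558 CPM. Of 14 microglial genes tested 2 rose and 1 fell, at 393 to 506 CPM against 331 to 397 CPM. Csf1r, the receptor by which microglia survive, had a log2 fold of 1.197 (SE 0.36), which turned to -0.89 when peaks within 1000 bp of a start site alone were counted, and Ptprc, the leukocyte antigen CD45, one of -1.03 (SE 0.28). Cx3cr1 rose by 0.57 (SE 0.11), with up to 66.4% of its counts in peaks shared with neighbouring genes. Of 12 erythroid genes 4 were tested and 0 were called by edgeR or by DESeq2, with 1 (Nfe2) at an unadjusted p under 0.05. At the top 0.5% and at the top 0.25% by score 1 erythroid gene was called higher. The summed level of the list was 50.3 to 110 CPM against 56.7 to 89.4 CPM, and the globin genes were not among those tested. Of 8 megakaryocyte genes 3 were tested and 1 rose, with a median log2 fold of 0.32. At the top 0.5% and the top 0.25%, in fits with fewer samples, 0 rose. The medians there were 0.35 and 0.56, and at the top 0.25% only 2 of the genes were tested. Leaving out the high-scoring nuclei that were high in the blood lists kept 361 of 367, and the count of endothelial genes that rose stayed at 36. So few nuclei were left out that the count had little room to change, and the part of blood cells was not tested.

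Single regions gave the sharpest differences. Peaks were merged across libraries, and 68274 of the resulting regions were covered in every library. Of these, 68112 were tested and 18054 (26.5%) were called, 4046 (5.94%) higher and 14008 (20.6%) lower, with a median log2 fold of -0.41. With total counts in place of TMM scaling the split was 5589 to 9244 and the median -0.20. Over the 17908 regions with at least 100 counts in the high-scoring nuclei, 2728 were called higher and 3173 lower, and the median was -0.11. That filter used the high-scoring class alone and so removed regions low in it. Part of the shift from the full set is therefore fixed by the filter. Outside the score genes, of the 6 regions with the largest folds 4 were intronic and 2 intergenic, by the GENCODE M21 annotation on GRCm38. Of these, 0 lay within 1000 bp of a start site, and 1 lay 1811 bp from one. Promoter regions, within 1000 bp of a start site, made up 25.4% of all regions tested and 25.4% of those called higher. The shares were 28.9% and 32.8% for intronic regions, and 37.6% and 34.7% for intergenic ones. The places of the 6 regions therefore do not describe all regions called higher.

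The centres of the regions ranked second to sixth by fold are shown, because they carry large differences and lie outside the genes used to find the nuclei; the sequence of the region of largest fold is not shown and not counted among the 5. Each is the central 200 bases read from GRCm38 on the plus strand, and capitals mark the letters AGGAAG or their complement, a core recognised by ETS factors.
chr6:112402182-112402381: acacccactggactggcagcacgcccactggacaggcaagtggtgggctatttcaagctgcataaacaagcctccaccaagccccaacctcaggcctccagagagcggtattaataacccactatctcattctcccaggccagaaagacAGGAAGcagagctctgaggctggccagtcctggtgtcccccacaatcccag
chr11:72467236-72467435: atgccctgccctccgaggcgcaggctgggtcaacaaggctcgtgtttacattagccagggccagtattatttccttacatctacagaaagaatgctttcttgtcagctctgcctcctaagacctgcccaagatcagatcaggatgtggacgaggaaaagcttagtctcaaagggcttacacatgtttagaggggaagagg
chr15:10818437-10818636: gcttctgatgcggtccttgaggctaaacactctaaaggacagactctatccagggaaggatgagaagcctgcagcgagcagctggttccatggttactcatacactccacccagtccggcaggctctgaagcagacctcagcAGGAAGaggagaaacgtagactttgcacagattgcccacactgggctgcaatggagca
chr6:5093645-5093844: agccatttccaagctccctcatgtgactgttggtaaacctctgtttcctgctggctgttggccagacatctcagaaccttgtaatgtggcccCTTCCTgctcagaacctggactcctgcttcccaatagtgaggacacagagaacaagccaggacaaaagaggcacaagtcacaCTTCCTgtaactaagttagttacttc
chr2:30242649-30242848: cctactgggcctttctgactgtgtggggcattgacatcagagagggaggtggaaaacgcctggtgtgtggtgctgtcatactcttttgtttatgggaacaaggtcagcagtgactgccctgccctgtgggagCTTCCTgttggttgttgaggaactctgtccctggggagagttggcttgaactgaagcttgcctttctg
The letters were present on either strand in 4 of the 5 windows, and in 23.6% of equally long central windows of all 68274 regions. The SOX core ACAATG was found in none of the 5 windows and in 9.92% of all. The letters AGATAA, bound by GATA factors, were likewise found in none of the 5 and in 8.07% of all. A match is a description of the letters and not evidence of binding.

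The region at chr6:112401977-112402588 is intergenic, 13954 bp from the nearest start site, of Ssu2. It read 16.6 CPM in LGE replicate 2 to 82.5 CPM in MGE replicate 2 in the high-scoring nuclei and 0.113 to 1.15 CPM in the others, a fitted fold of 45.8 (log2 fold 5.52, SE 0.35, edgeR adjusted p = 4.73e-51). The region at chr11:72467001-72467672 lies in an intron of Spns2, the transporter that exports sphingosine 1-phosphate from endothelial cells. It read 7.24 CPM in CGE replicate 2 to 58.2 CPM in LGE replicate 1 against 0.188 to 1.30 CPM, a fold of 42.6 (log2 fold 5.41, SE 0.39). The region at chr15:10818027-10819047 is intergenic, 103403 bp from the start site of Rai14, and read 4.14 to 92.6 CPM against 0.176 to 2.66 CPM (log2 fold 5.31, SE 0.31). The classes did not overlap in any of these regions. They were picked for large folds in the same direction in every sample, so this is a description.

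The region at chr6:5093412-5094079 lies in an intron of Ppp1r9a and read 7.24 to 67.1 CPM against 0.310 to 1.01 CPM (log2 fold 5.30, SE 0.40). That at chr2:30242378-30243120 is intronic and overlaps both Lrrc8a, a volume-regulated anion channel subunit, and the gene model Gm28035, whose start site is 1811 bp away. It read 21.7 to 78.5 CPM against 0.464 to 1.87 CPM (log2 fold 5.26, SE 0.32). The largest fold of all, 59.8 (log2 fold 5.90, SE 0.33), was at chr18:47219049-47219743 in an intron of Commd10, 61452 bp from the start site of Sema6a, where the high-scoring nuclei read 14.47 to 78.5 CPM and the others 0.326 to 0.988 CPM. In LGE replicate 2 and CGE replicate 2 these values rest on 1 to 11 counts per region. The 3 largest folds lower were regions with 0 counts in all high-scoring nuclei, at chr7:115380763-115383518, chr12:82092044-82094323 and chr2:67897805-67898943. Against a floor of 3 counts over all high-scoring nuclei, they were at least 10.7-fold, 8.83-fold and 7.55-fold lower.

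Within single nuclei, counts at these 6 regions were more frequent in the upper ranks. At least 3 of the 6 had a count in 47.8% of the 92 nuclei of highest score, in 33.7% of ranks 93 to 184, in 15.4% of ranks 185 to 275 and in 7.61% of ranks 276 to 367. Of the 36328 other nuclei 104 (0.286%) had counts in at least 3, slightly more than the 96 among the high-scoring nuclei. By sample, 27 of 73 high-scoring nuclei of CTX replicate 2 and 25 of 62 of LGE replicate 1 had them, but 5 of 35 of CTX replicate 1 and 2 of 24 of CGE replicate 2. The regions were themselves found by comparing the classes, so these shares are a description. The 28 nuclei above the 95th percentile of counts over all samples held 32.9% to 42.0% of the high-scoring nuclei's counts in each region.

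Counts in peaks matched to a transcription factor motif differed by much smaller amounts. For each of 579 motifs the deposited matrix gives the counts of a nucleus in peaks that hold a match. Of these, 398 (68.7%) were called, 207 (35.8%) higher and 191 (33.0%) lower, with a median log2 fold of 0.01. ETS motifs were higher: 16 of 17 rose and 0 fell, with a median log2 fold of 0.19 and values from -0.03 for SPI1 to 0.28 for Gabpa. Motif levels are given per 1000000 counts summed over all 579 motifs (motif CPM), which is not the CPM used for genes and regions. Gabpa read 631 ± 70.8 motif CPM in the high-scoring and 522 ± 49.8 motif CPM in the other nuclei (SD, n = 8). It was higher in 8 of 8 samples (log2 fold 0.28, SE 0.03, edgeR adjusted p = 6.83e-06). ELF4 (0.25, SE 0.03) and ELK4 (0.24, SE 0.04) followed. Members of the family match many of the same peaks, and FEV, ELK1, ETV1, ETV4 and ELK3 had the same value, so these motifs are not independent measurements.

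The largest folds higher among all motifs were those of ZBTB7B (log2 fold 0.65, SE 0.07), E2F1 (0.34, SE 0.06), HIF1A (0.32, SE 0.04), SRF (0.29, SE 0.05), Gabpa and JUND (0.26, SE 0.04). HIF1A is the hypoxia-inducible factor, and JUND, FOSL2::JUN (0.23, SE 0.04) and FOS (0.19, SE 0.03) belong to AP-1. Over all 579 motifs 35.8% rose and 33.0% fell, which is the background for the counts that follow. Of 14 KLF, AP-1 and MEF2 motifs 12 rose and 2 fell. Neural homeodomain, POU and proneural motifs were lower, with 20 of 25 fallen and 1 risen (median -0.16). EMX2 fell by 0.34 (SE 0.04), LHX6 by 0.34 (SE 0.04) and POU3F3 by 0.32 (SE 0.04) on the log2 scale, each in 8 of 8 samples. In the high-scoring nuclei EMX2 and LHX6 both had 7204 counts in CTX replicate 2, and 7770 and 7776 in CGE replicate 1. They are therefore not independent measurements, and other motifs of the list may overlap too. The largest falls over all motifs were those of MYBL1 (-1.12, SE 0.25, at a mean of 0.561 motif CPM), Pou5f1::Sox2 (-0.42, SE 0.04) and Hoxc9 (-0.35, SE 0.04).

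The remaining motif families are given by their counts, beside the 35.8% of all motifs that rose and the 33.0% that fell. Of 10 SOX motifs 0 rose and 3 fell (SOX8, -0.20, SOX4, -0.11, and Sox11, -0.09), while Sox7, Sox17 and Sox18 were among the genes that rose. Of 7 GATA and TAL motifs 1 rose (GATA1::TAL1, 0.09) and 3 fell, among them GATA6 (-0.14) and TAL1::TCF3 (-0.10). Of 7 forkhead motifs Foxo1 rose (0.15) and 4 fell, among them FOXC1 (-0.15) and FOXF2 (-0.10). Of 4 Wnt motifs 0 were called in edgeR and 0 had an unadjusted p under 0.05, with log2 folds of 0.01 to 0.05. Among 10 general factors 9 rose, including CTCF (0.20, SE 0.02), NRF1 (0.16, SE 0.02) and SP1 (0.14, SE 0.02). High-scoring nuclei also had a larger share of their counts in peaks within 1000 bp of a start site, 54.8% against 51.5% pooled and higher in each of the 8 samples; its part in the motif result was not tested.

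**Figure D5:**
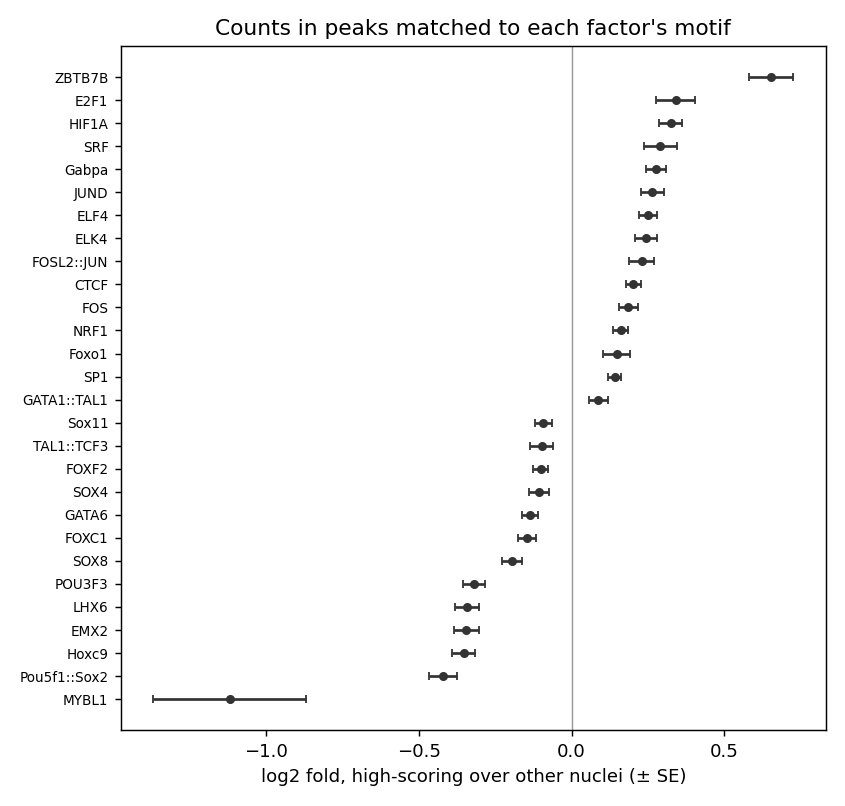
The log2 fold of high-scoring over other nuclei (x axis, bars are ± 1 SE) is shown for the named motifs. ETS and AP-1 motifs lie between 0.19 and 0.28, and the homeodomain and POU motifs EMX2, LHX6 and POU3F3 between -0.34 and -0.32.

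Whether the high-scoring nuclei of the cortex differed from those of the eminences was tested in their sums alone. CTX replicate 2 was taken at E14.5 and all other samples at E12.5, so the comparison mixes ages within CTX. Of 15267 genes, 2 (0.0131%) were called in edgeR, Mia higher in CTX (0.00655%) and Dlx1 lower (0.00655%), and 879 had an unadjusted p under 0.05. Without CTX replicate 2 the count was 86, and it was between 2 and 9 without any other sample. Dlx1, a homeobox gene of ventral forebrain neurons, read 36.4 and 45.3 CPM in the CTX samples and 211 to 431 CPM in the 6 GE samples (log2 fold -2.58, SE 0.34, adjusted p = 0.00395). In the other nuclei of the same samples it read 39.8 and 42.9 CPM in CTX and 261 to 510 CPM in GE, so that both classes were lower in CTX. Peaks at Dlx1 spanned 8.22 kb on average in the CTX libraries but 25.5 kb in those of GE. With that length as an offset the log2 fold was -0.92 (adjusted p = 0.999), and without CTX replicate 1 the adjusted p was 0.0503. When either CTX sample was left out, the other was assumed to vary like the GE samples. Mia read 35.2 and 102 CPM in CTX and 0 CPM in all GE samples, but no peak was called over it in 5 of the 6 GE libraries, so a count at Mia was not possible there. None of the 22 endothelial transcription factor or 26 surface genes tested was called, with 3 and 5 of them at an unadjusted p under 0.05.

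The difference between the cortex and the eminences in the class effect itself, a term for class by region in the paired fit, was called for 0 of 16660 genes (0%) in edgeR, where 872 had an unadjusted p under 0.05 and the smallest adjusted p was 0.205. DESeq2 called 1 gene, Nr2e1. For Dlx1 this term was a log2 difference of 0.32 (SE 0.27, adjusted p = 0.998).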

How the data were processed

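Wild-type embryonic forebrain nuclei were profiled by 10x single-nucleus ATAC-seq. Per the submitters' processing notes, reads were processed with Cell Ranger ATAC 1.2.0 on GRCm38; the authors deposited, for each library, filtered counts per peak and nucleus, and a matrix of counts in peaks matched to each motif. Peaks were called separately in each library, so each sample has its own features. Libraries held 77387940 to 138873845 counts. No doublets were removed here.

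Peaks were assigned to GENCODE M21 protein-coding genes (body plus 2000 bp upstream), and counts were summed per sample and class; a peak over several genes counted for each. Tests used edgeR 4.0.16 (R 4.3.3; filterByExpr, TMM, quasi-likelihood F test, sample as block; samples with at least 10 high-scoring nuclei), with DESeq2 1.42.0 as an alternative. SE is the absolute log2 fold divided by the root of F. On simulated counts for the gene comparison (16660 genes), 90% of 2-fold and 100% of 4-fold changes among 200 changed genes were recovered, with 13 unchanged genes called. The changed genes were drawn from those above a minimum mean count in the high-scoring sums, so recovery at lower counts is not shown. They were far fewer than the 4022 genes called in the data. CTX was compared with GE without a replicate block.

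The text names the score genes, the 4 called genes of largest fold in each list, the 10 highest and 6 lowest genes with at least 20 CPM moving the same way in every sample and sharing no peak with a score gene, the 6 highest and 3 lowest regions, the 6 highest and 6 lowest motifs and 3 per motif list; others are said to be chosen later, and a few genes the rule names are not reported here. The nuclei and lists were chosen with earlier results of these data known. Alternatives covered scaling, filters, the cut of the score, depth, left-out samples and the block. Intervals are 95% Clopper-Pearson and floors 3 counts.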

Additional observations from a re-analysis of the deposited data

Results flagged for a closer look

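Among 95 sets of values tested, the log2 ratios of high-scoring over other nuclei for named features and the shares in GE, 5 had 1 sample far from the other 7 by Dixon's test. Chance gives about 1 in 20, so the number of flags was about what chance gives. Sox18 was at 0.61 in CTX replicate 1, against 2.80 to 4.12 in the other samples. Sema3g was at 0.15 in CGE replicate 2, against 1.54 to 2.44. Foxc2 was at -1.25 in CGE replicate 2, against 0.41 to 1.50. The gene 9330159F19Rik was at -3.43 in CTX replicate 2, against -1.94 to -0.86. The E2F1 motif was at -0.25 in LGE replicate 2, against 0.22 to 0.48. In 4 of the 5 the sample was CTX replicate 1, LGE replicate 2 or CGE replicate 2, those with the smallest shares of high-scoring nuclei above the 99th percentile at the other endothelial genes. A link between those shares and the flags was not tested.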

How the results depend on the processing

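Without the sample block, 2673 genes, 12033 regions and 0 motifs were called (151 motifs at an unadjusted p under 0.05), against 4022, 18054 and 398; of the lists, 1 GABAergic, 2 glutamatergic, 8 forebrain patterning and 4 signalling genes then fell, against 8, 4, 16 and 7. With the score over shared regions 5 barrier genes rose, against 8. Leaving out 1 sample gave 3125 to 4340 genes, 12921 to 18465 regions and 370 to 427 motifs. The top 0.25% by score, chosen after seeing the data, gave 3223 genes, 12845 regions and 387 motifs. Of the values of named genes under alternatives, 1375 kept their direction and call, 59 kept the direction alone and 2 reversed: Csf1r was at -0.89 with peaks within 1000 bp of a start site alone, and Tbx2 at -0.016 at the top 0.25%. For CTX against GE in the high-scoring nuclei, where edgeR called 2 genes, DESeq2 called 9, the covered-length offset 0 (667 at an unadjusted p under 0.05), no filter on low counts 173, and leaving out 1 sample 2 to 86, the 86 without CTX replicate 2, 9 without CGE replicate 1, 6 and 4 without the second and first MGE replicate and 5 without CTX replicate 1; the fit with a replicate block called 2, and the samples share only a number, since deviations of same-numbered samples correlated at -0.08 to 0.13. Total counts as library size moved the median log2 fold of all genes in this comparison from 0.01 to -0.12. DESeq2 called 1 gene for the class by region term, against 0; leaving out 1 sample gave 0 each time. The difference in the share of high-scoring nuclei between CTX and GE lay between 0.00914 and 0.625 points when 1 sample was left out; without either CTX sample there were 7 arrangements, too few for a p of 0.05. The cause of these changes was not tested. Depth limits LGE replicate 2 and CGE replicate 2, whose high-scoring nuclei held 241372 and 276412 counts.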
